A study of Homo sapiens with 6 samples.

Results

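The peroxisome genes described here were 29 of the 17297 genes in a table of RNA-seq read counts from LNCaP, a human prostate cancer cell line in wide use, with a low level of Gα13. They were taken by symbol from a list of peroxins, peroxisomal membrane proteins and enzymes of peroxisomal lipid metabolism, and each of the 29 symbols had a row. Expression was measured in 2 stable lines, 3 libraries each. The pBabe-vector line carried the empty pBabe-puromycin vector, and the pBabe-Gα13 line carried wild-type GNA13 cDNA in the same vector. Both were kept in puromycin, and RNA was taken after 48 h on plates, at 80% confluency. Each condition was 1 stable line, so the 3 replicates of a condition were cultures of that line, and any difference between the lines could come from the transgene or from how the 2 lines were made. The comparison asks how expression of these genes differs when Gα13 is overexpressed.

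Peroxisomes break down very long, branched and otherwise awkward fatty acids, and start the synthesis of ether lipids such as plasmalogens. They import their enzymes fully folded from the cytosol: PEX5 binds a type 1 signal at the very end of the cargo, PEX7 binds a type 2 signal near its start, the receptors dock at PEX13 and PEX14, and a ubiquitin ligase that includes PEX2 and PEX10 marks PEX5 so that the PEX6 complex, held at the membrane by PEX26, can pull it out again. In the prostate the pathway is best known through AMACR, the racemase that prepares branched fatty acids for beta-oxidation and a tissue marker of prostate cancer.

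No peroxisome gene differed between the lines by the test that took the line as its only term (edgeR's quasi-likelihood test, TMM normalization, Benjamini-Hochberg adjustment over all 17297 genes, adjusted p under 0.05). The count was 0 of 29, where 24 genes or 0.139% of the whole table passed. At an unadjusted p under 0.05 there were 2 members, PEX5 and PEX10, where the share of the table was 8.46%. The libraries also formed 3 pairs across the lines by the tags in the column headings (std, replicate 2, replicate 3). With the pair as a block in the fit, 7 of 29 members passed, or 24.1%, where the share of the table was 19.7%. The 2 members higher in pBabe-Gα13 were PEX5 and AMACR, where 9.32% of the table was called higher. The 5 lower ones were PEX16, PEX7, PEX10, PEX26 and ABCD3, where 10.4% of the table was called lower.

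The libraries held 33002160 to 40628970 counts, so that 3 counts, taken as the floor of detection, equal 0.0715 to 0.0935 CPM, the unit used here, which is the count scaled to the library's TMM-normalized total. The 7 markers of prostate luminal cells and LNCaP, KLK3 among them, summed to 4816 to 7672 CPM in pBabe-Gα13 and 3944 to 6799 CPM in pBabe-vector. The 3 basal markers summed to 4.49 to 8.26 CPM against 2.38 to 2.48 CPM, and the 4 fibroblast markers to 17.3 to 24.8 CPM against 11.6 to 23.5 CPM. Of 3 hepatocyte markers only ALB had a row, at 0.0588 to 4.24 CPM against 0.0886 to 0.858 CPM, and none of 4 leukocyte markers did. With the block, 4 luminal, 2 basal, 1 fibroblast and 1 hepatocyte marker were higher in pBabe-Gα13, where 9.32% of the table was, and the part of these shifts in the results was not tested. KRT8 and KRT18, 2 of the luminal ones, lie on chromosome 12 and lost their calls after centring of each chromosome (edgeR adjusted p = 0.783 and 0.643). Replicate 2 of both lines stood apart in KRT5, with 0 counts, and in ALB, with 2 and 3 counts. In COL1A2 it stood apart in pBabe-Gα13 alone, with 0 counts against 96 (std) and 87 (replicate 3). The pBabe-vector libraries had 2, 0 and 3 counts of COL1A2, all at or under the floor. In bulk RNA, fewer cells that express a gene and less RNA per cell cannot be told apart. GNA13 itself stood at 820, 886 and 747 CPM in the pBabe-Gα13 libraries std, replicate 2 and replicate 3, and at 76.7, 69.4 and 65.4 CPM in pBabe-vector. The groups were far apart (log2 fold change 3.54, SE 0.12, adjusted p = 9.1e-05 by edgeR), and the reads of the transgene and of the endogenous gene were counted together.

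The import signals that PEX5 and PEX7 read were looked up first, since they tie the enzymes among the members to the receptors. A type 1 signal was taken as a protein end of serine, alanine or cysteine, then lysine, arginine or histidine, then leucine or methionine. A wider form also admitted proline or threonine at the first place, asparagine, serine or glutamine at the middle one, and isoleucine at the last. A type 2 signal was a pattern of 9 residues within the first 60 that starts with arginine or lysine and has histidine or glutamine as the eighth. Among the 29 members, 6 matched the narrow type 1 form and 3 matched type 2, or 20.7% and 10.3%, where 0.441% and 0.311% of 13818 coding genes of the table did. The narrow or wider type 1 form was met by 9 members, PHYH among them, or 31.0%, where 1.98% of coding genes met it. The members were chosen as peroxisome genes, and the patterns describe peroxisomal import signals. A higher share than in the table was therefore built into the choice. All matches were in enzymes, and none of the peroxins, membrane proteins or ABC transporters matched. The 30 coding bases at each site are shown because they hold the letters that the receptors' cargo rule rests on, read from the Gencode 44 canonical transcripts on GRCh38, 5′ to 3′ on the coding strand, with the signal codons in capitals. The first 6 are narrow type 1 ends, of the branched-chain oxidase ACOX3, the bifunctional enzyme EHHADH, the thiolase and sterol carrier SCP2, the reductases DECR2 and PECR, and the ether lipid acyltransferase GNPAT. They end in the stop codon in lower case.
ACOX3: gtcataggaagtctgaaaTCGAAGCTCtag
EHHADH: ttggcaggctcccctagcAGTAAATTGtga
SCP2: cagcttcagccaggcaacGCTAAGCTCtga
DECR2: gatttcgcatccttctctGCTAAGCTCtag
PECR: gagacctttaaggagaaaGCTAAGCTCtga
GNPAT: ataggaaaaccagccactGCAAAACTTtaa
Next come the ends of AMACR and of HACL1, the lyase of alpha-oxidation, which met the wider form alone.
AMACR: gaaagtaataaggtaaaaGCTAGTCTCtaa
HACL1: tttcattggctgacccgcTCTAATATGtaa
The last 3 are the type 2 stretches near the start of the coding sequence, of the thiolase ACAA1, the ether lipid synthase AGPS and the phytanoyl-CoA hydroxylase PHYH, the members that follow PEX7.
ACAA1: cagAGGCTGCAGGTAGTGCTGGGCCACCTG
AGPS: cggAGGCTGCGGGTTCTCTCTGGCCATCTG
PHYH: gccCGTCTGCAGATTGTTCTGGGCCACCTC

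These sites lay within single coding exons at chr4:8366961-8366990 (ACOX3, minus strand), chr3:185192226-185192255 (EHHADH, minus), chr1:53050675-53050704 (SCP2, plus), chr16:411549-411578 (DECR2, plus), chr2:216039275-216039304 (PECR, minus) and chr1:231277513-231277542 (GNPAT, plus). The AMACR and HACL1 ends lay at chr5:33989093-33989122 and chr3:15560865-15560894, both on the minus strand. The type 2 stretches lay at chr3:38137003-38137032 (ACAA1, minus), chr2:177392895-177392924 (AGPS, plus) and chr10:13299992-13300021 (PHYH, minus). The alanine, lysine and leucine codons GCTAAGCTC closed SCP2, DECR2 and PECR alike. A match to a pattern is a description of the letters and says nothing of import in these cells.

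The sizes of the differences were small. Of the 29 members, 28 stood above the floor, at means of 7.21 CPM (PXMP2) to 152 CPM (SCP2) over the 6 libraries. Their log2 fold changes ran from −0.51 (PEX10) to 0.36 (AMACR), with 17 below 0 and 11 above. The median was −0.05, where that of the 16131 genes above the floor was −0.01, and in the single pairs it was −0.04 (std), −0.04 (replicate 2) and −0.05 (replicate 3). In 15 members the size was under 0.1 and in 26 under 0.3. The 95% interval of the log2 fold change lay within ±0.5 in 23 members with the line alone and in 27 with the block. In 24 of the 28 members the range of the pair means was larger than the difference between the lines, where the share of the table was 79.6%.

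**Figure D1:**
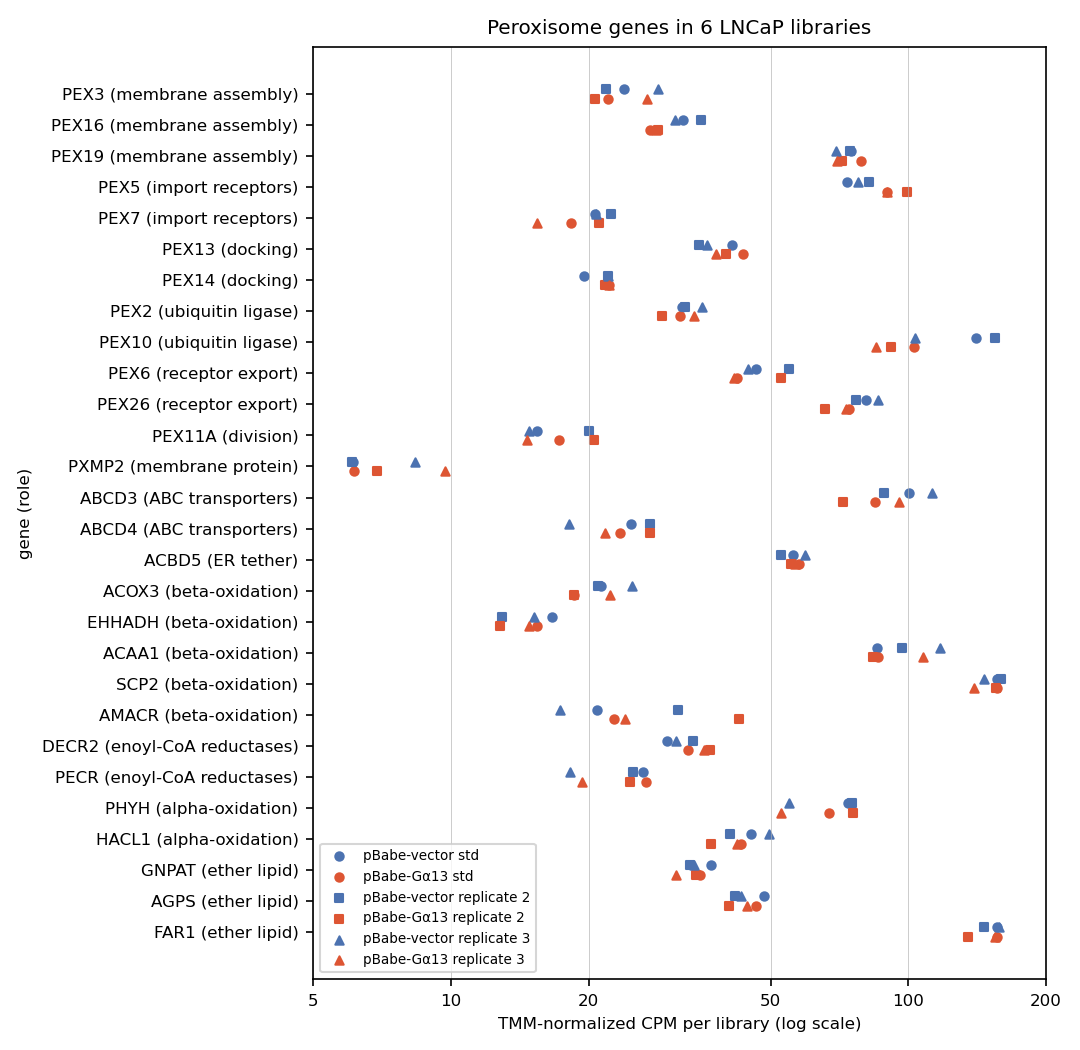
TMM-normalized CPM (log axis) of the 28 members above the floor in each of the 6 libraries, ordered by role, with pBabe-vector in blue, pBabe-Gα13 in red and 1 marker shape per pair. The groups do not overlap in PEX16, PEX5, PEX10 and PEX26 and overlap in the other 24 members.

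PEX10 showed the largest difference among the members. It encodes a RING subunit of the ligase that ubiquitinates PEX5, and lies at chr1:2403964-2413797 on the minus strand (GRCh38, Gencode 44). Its level was 103, 91.6 and 85.0 CPM in the pBabe-Gα13 libraries std, replicate 2 and replicate 3, and 141, 155 and 103 CPM in pBabe-vector. Each pBabe-Gα13 library lay below each pBabe-vector library, with the std library of one line and replicate 3 of the other almost level. The means were 93.1 ± 8.99 CPM and 133 ± 26.7 CPM (SD, n = 3), and PEX10 was lower in 3 of 3 pairs. Its log2 fold change was −0.51 (SE 0.16, edgeR adjusted p = 0.399) with the line alone and −0.50 (SE 0.06, edgeR adjusted p = 1.7e-06) with the block. The two-sided p of an exact permutation of the 6 libraries was 0.10, the smallest that 3 libraries a line can give. PEX10 fell with the block also after each chromosome had been centred on its median, by 0.53 on the log2 scale. Without pair 2 the blocked change was −0.37 and without pair 3 it was −0.59, and both passed. RER1, which overlaps PEX10 on the opposite strand, had a value of −0.07 on the log2 scale (adjusted p = 0.983 by edgeR, and 0.508 with the block), and whether reads were assigned by strand was not stated.

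PEX2, the other ligase subunit in the set, stood at 29.0 to 34.0 CPM in pBabe-Gα13 and 32.0 to 35.3 CPM in pBabe-vector. Its log2 fold change was −0.08 (95% interval −0.32 to 0.17), and it did not pass in either fit. Whether PEX10 and PEX2 differed from each other in their change was not tested.

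The import receptors showed opposite signs. PEX5, the type 1 receptor, stood at 89.7, 99.2 and 89.9 CPM in the pBabe-Gα13 libraries std, replicate 2 and replicate 3, and at 73.6, 82.0 and 77.5 CPM in pBabe-vector. The groups did not overlap, and PEX5 was higher in 3 of 3 pairs. Its log2 fold change was 0.26 (SE 0.09, edgeR adjusted p = 0.466), and with the block PEX5 rose by 0.26 (SE 0.05, edgeR adjusted p = 0.00054). PEX5 lies on chromosome 12, where the median log2 fold change of 700 genes above the floor was 0.30. Relative to that median its value was −0.04, and with the block and each chromosome centred the adjusted p was 0.693. Its difference was thus close to the median of its chromosome.

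PEX7, the type 2 receptor, stood at 18.3, 21.1 and 15.5 CPM in pBabe-Gα13 and at 20.6, 22.4 and 20.8 CPM in pBabe-vector, in the same order of libraries. The groups overlapped at replicate 2 of pBabe-Gα13, though each pair was lower in pBabe-Gα13. On the log2 scale the difference was −0.22 (SE 0.14, edgeR adjusted p = 0.808), and with the block the adjusted p was 0.0493, just inside the threshold. Without pair 3 the blocked value was −0.12 (edgeR adjusted p = 0.546), and without pair std the adjusted p was 0.0505. It also missed the threshold with the block and each chromosome centred (0.114) and with the block and a correction for GC content and length (0.0894). With the line alone the value was −0.10 without replicate 3 of pBabe-Gα13 and −0.33 without its replicate 2. The 3 members with a type 2 signal, which PEX7 recognises, had log2 fold changes of −0.12 (ACAA1), −0.06 (PHYH) and −0.02 (AGPS), and the 8 members with a type 1 and no type 2 signal had a median of −0.04.

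**Figure D2:**
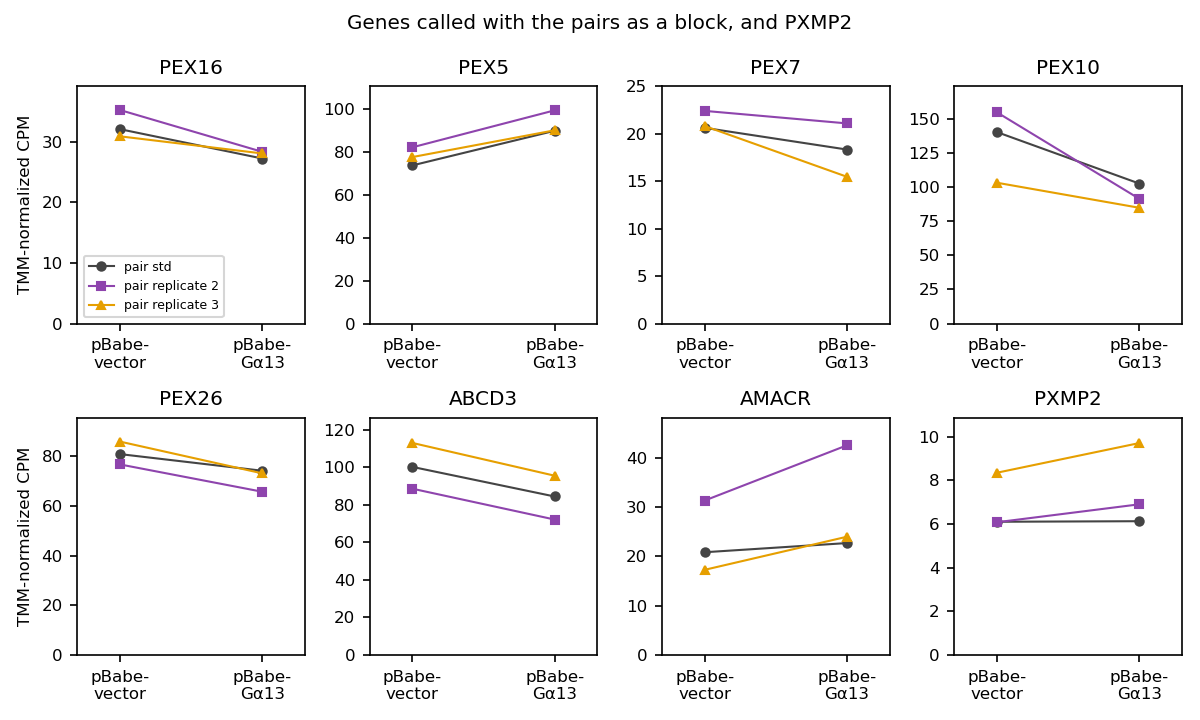
TMM-normalized CPM (axis from 0) of the 7 genes called with the pairs as a block, and of PXMP2, with a line joining the 2 libraries of each pair. The 3 lines run the same way in each of the 8 panels, while in AMACR replicate 2 of both lines sits above the other libraries.

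The docking proteins gave no call. PEX13 stood at 37.9 to 43.5 CPM in pBabe-Gα13 and 34.9 to 41.2 CPM in pBabe-vector, with a log2 fold change of 0.11 (95% interval −0.14 to 0.36). PEX14 stood at 21.7 to 22.2 CPM and 19.5 to 22.1 CPM, with a log2 fold change of 0.05 (95% interval −0.20 to 0.31).

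Of the receptor export proteins, PEX26 was called with the block. PEX26, the membrane anchor of the export complex, stood at 74.2, 65.8 and 73.1 CPM in the pBabe-Gα13 libraries std, replicate 2 and replicate 3, and at 80.9, 76.7 and 85.9 CPM in pBabe-vector. The groups did not overlap and each pair was lower in pBabe-Gα13. The log2 fold change was −0.19 (SE 0.09, edgeR adjusted p = 0.679), and with the block PEX26 fell by 0.19 (SE 0.05, edgeR adjusted p = 0.0085). It lies on chromosome 22, whose median was −0.14, and after centring the blocked value was −0.06 (edgeR adjusted p = 0.559). Without pair 2 or pair 3 it no longer passed, at adjusted p of 0.0508 and 0.138. PEX6, the ATPase of the complex, had 41.5 to 52.7 CPM against 44.6 to 54.9 CPM and a log2 fold change of −0.10 (95% interval −0.41 to 0.21).

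Membrane assembly rests on PEX3, PEX16 and PEX19, which bring membrane proteins to the organelle. PEX16, the receptor for early insertion, stood at 27.3, 28.4 and 28.1 CPM in the pBabe-Gα13 libraries std, replicate 2 and replicate 3, and at 32.1, 35.3 and 30.9 CPM in pBabe-vector. The pBabe-Gα13 libraries were tightly grouped, and each lay below each pBabe-vector library. On the log2 scale PEX16 differed by −0.23 (SE 0.10, edgeR adjusted p = 0.592), and with the block PEX16 fell by 0.23 (SE 0.07, edgeR adjusted p = 0.0127). After centring of each chromosome the adjusted p was 0.0584, and without pair 2 it was 0.11. PEX3, the membrane dock, had a log2 fold change of −0.09 (95% interval −0.44 to 0.26), and PEX19, the chaperone for membrane proteins, had 0.01 (95% interval −0.20 to 0.22).

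PEX16, PEX10 and PEX26 were thus the members that lay lower in each library of pBabe-Gα13, and PEX5 the member that lay higher. These 4 were 13.8% of the members, where 14.1% of all genes had groups that did not overlap, 7.30% higher and 6.79% lower. Over the pairs, 5 members were higher and 11 lower in 3 of 3 pairs and 12 were mixed, where 48.0% of the table held 1 direction in all 3 pairs. The share of the table in each direction was not computed, so the split of 5 and 11 has no comparison.

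**Figure D3:**
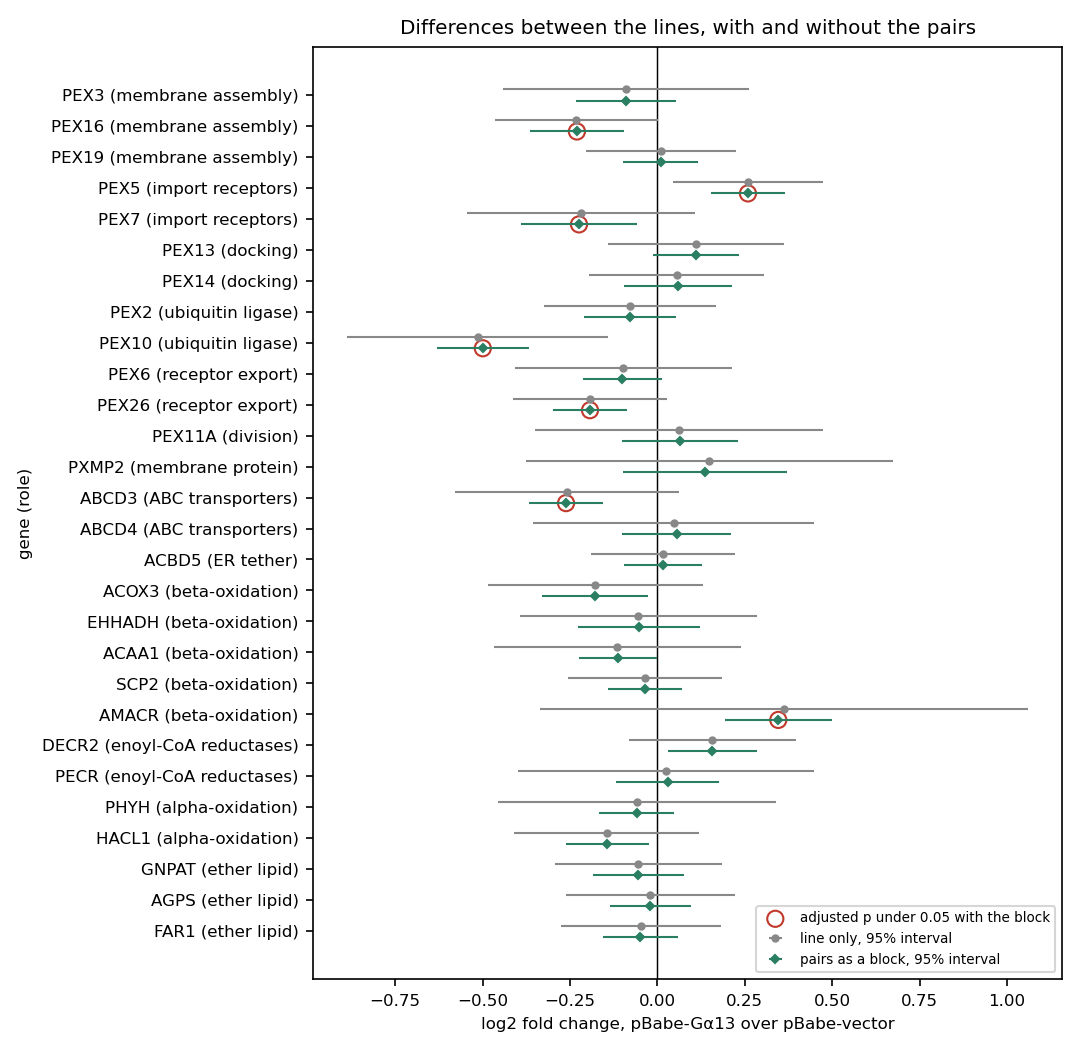
log2 fold change of pBabe-Gα13 over pBabe-vector for the 28 members above the floor, with the 95% interval of the fit on line only (grey) and of the fit with the pairs as a block (green), and a ring around values with a blocked adjusted p under 0.05. The 7 ringed values lie between −0.50 and 0.35, and the grey intervals, which reach a median of 0.285 to each side, are wider than the green ones, which reach 0.129.

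Division and the membrane were represented by PEX11A, PXMP2 and PXMP4. PEX11A, which elongates the peroxisome before fission, stood at 14.7 to 20.6 CPM in pBabe-Gα13 and 14.8 to 20.1 CPM in pBabe-vector, with a log2 fold change of 0.06 (95% interval −0.35 to 0.47). PXMP2, a channel protein for small solutes, was the lowest member above the floor in CPM, at 6.13, 6.90 and 9.71 CPM in the pBabe-Gα13 libraries std, replicate 2 and replicate 3, and at 6.10, 6.08 and 8.35 CPM in pBabe-vector. The groups overlapped and replicate 3 was the highest library of each line. Its log2 fold change was 0.15 (95% interval −0.38 to 0.67, edgeR adjusted p = 0.968), and the adjusted p with the block was 0.464. PXMP2 lies on chromosome 12 as PEX5 does, and relative to that chromosome its value was −0.15. PXMP4, another membrane protein, had 0 counts in the std library and replicate 2 of both lines and 1 count in replicate 3 of each, so it was at or under the floor and no fold change is given.

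ABCD3 and ABCD4 belong to a family of ABC transporters. ABCD3 carries branched and dicarboxylic acyl groups into the peroxisome, while ABCD4 is known to act at the lysosome in cobalamin transport. ABCD3 stood at 84.4, 72.2 and 95.5 CPM in the pBabe-Gα13 libraries std, replicate 2 and replicate 3, and at 100.2, 88.6 and 113 CPM in pBabe-vector. The lines overlapped over all libraries, yet within the pairs the differences were close to each other, at −0.25, −0.30 and −0.24 on the log2 CPM scale. The log2 fold change was −0.26 (SE 0.14, edgeR adjusted p = 0.716), and with the block ABCD3 fell by 0.26 (SE 0.05, edgeR adjusted p = 0.00049). With the line alone it was −0.16 without replicate 2 of pBabe-Gα13. With the block it was called with each pair left out, and after centring of each chromosome, at an adjusted p of 0.00021. ABCD4 had 21.7 to 27.2 CPM against 18.1 to 27.2 CPM, with a log2 fold change of 0.05 (95% interval −0.36 to 0.45). ACBD5, the tether to the endoplasmic reticulum, had 55.5 to 57.7 CPM against 52.8 to 59.4 CPM, with a log2 fold change of 0.01 (95% interval −0.19 to 0.22).

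AMACR was the member with the largest positive value. Its level was 22.7, 42.6 and 24.0 CPM in the pBabe-Gα13 libraries std, replicate 2 and replicate 3, and 20.9, 31.4 and 17.3 CPM in pBabe-vector. Replicate 2 was the highest library of each line, and the groups overlapped. The means were 29.8 ± 11.1 CPM and 23.2 ± 7.31 CPM (SD, n = 3). The log2 fold change was 0.36 (SE 0.30, edgeR adjusted p = 0.888), with a 95% interval from −0.34 to 1.1, the widest among the members above the floor. With the block AMACR rose by 0.35 (SE 0.07, edgeR adjusted p = 0.0012), and it was called with each pair left out and after centring. Within the pairs the difference was 0.12 (std), 0.44 (replicate 2) and 0.47 (replicate 3). With the line alone, the size moved with the library left out. It was 0.01 without replicate 2 of pBabe-Gα13, 0.64 without replicate 2 of pBabe-vector and 0.19 without replicate 3 of pBabe-vector. With the block and the whole of pair 2 left out the value was 0.29.

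Replicate 2 was also the highest library of each line in KLK3, KLK2, TMPRSS2, FOLH1 and HOXB13, markers of prostate luminal cells. The luminal markers KRT8 and KRT18 did not share this. In KRT8 replicate 2 was the lowest library of pBabe-Gα13 and the highest of pBabe-vector, and in KRT18 the std library was the highest of each line. KLK2 stood at 173, 371 and 170 CPM in pBabe-Gα13 and 111, 171 and 83.3 CPM in pBabe-vector, in the order std, replicate 2, replicate 3. The part of these markers in the level of AMACR was not tested. Gencode 44 also lists a readthrough transcript, C1QTNF3-AMACR, on the strand of AMACR. Reads from exons that the 2 share cannot be told apart in the counts.

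The other beta-oxidation enzymes gave no call in either fit. SCP2 stood at 139 to 156 CPM in pBabe-Gα13 and 146 to 160 CPM in pBabe-vector, with a log2 fold change of −0.03 (95% interval −0.25 to 0.19). ACAA1, the peroxisomal thiolase, had 83.6 to 108 CPM against 85.5 to 118 CPM and a log2 fold change of −0.12 (95% interval −0.47 to 0.24). ACOX3 was lower in 3 of 3 pairs, at 18.6 to 22.3 CPM against 21.0 to 24.9 CPM, and missed the threshold at −0.18 (edgeR adjusted p = 0.853, and 0.0927 with the block). EHHADH had means of 14.4 ± 1.38 CPM and 14.9 ± 1.85 CPM (SD, n = 3) and a log2 fold change of −0.06 (95% interval −0.39 to 0.28).

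The enoyl-CoA reductases DECR2 and PECR handle unsaturated intermediates. DECR2 was higher in 3 of 3 pairs, at 33.0 to 36.8 CPM in pBabe-Gα13 and 29.7 to 33.9 CPM in pBabe-vector. Its log2 fold change was 0.16 (SE 0.10, edgeR adjusted p = 0.817), with an adjusted p of 0.0795 with the block, 0.0401 with the block and each chromosome centred, and 0.0267 with the block and a correction for GC content and length. DECR2 shares its strand and part of its span with NME4. NME4 stood at 1.55 to 2.38 CPM in pBabe-Gα13 and 2.17 to 2.92 CPM in pBabe-vector. Its log2 fold change was −0.34 (edgeR adjusted p = 0.839, and 0.213 with the block), and its part in the counts of DECR2 was not tested. PECR had 19.4 to 26.7 CPM against 18.2 to 26.3 CPM and a log2 fold change of 0.03 (95% interval −0.40 to 0.45), and shares its strand with MREG. MREG had 8.78 to 11.1 CPM against 8.71 to 10.3 CPM and a log2 fold change of 0.04. By whole gene span, PEX13, PEX14, PEX6, ACBD5, ACOX3, ACAA1, HACL1, AGPS and PECR each overlap a gene of the table on the opposite strand. Spans include introns, and overlap of exons was not looked up. Reads from a stretch where exons of both genes overlap cannot be told apart without strand.

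Alpha-oxidation shortens phytanic acid, which cannot enter beta-oxidation directly. PHYH, its hydroxylase, had 52.8 to 75.7 CPM in pBabe-Gα13 and 54.8 to 75.3 CPM in pBabe-vector, with a log2 fold change of −0.06 (95% interval −0.46 to 0.34). HACL1 was lower in 3 of 3 pairs, at 37.1 to 43.2 CPM against 40.7 to 49.5 CPM, with a log2 fold change of −0.15 and an adjusted p of 0.871, or 0.0851 with the block. The 3 ether lipid enzymes stood close to 0. GNPAT, which adds the first acyl chain, had −0.05 on the log2 scale, AGPS, which exchanges it for an alkyl chain, had −0.02, and FAR1, which supplies the fatty alcohol, had −0.05. Their 95% intervals lay between −0.29 and 0.22 with the line alone.

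Centring of each chromosome changed which members were called. With the block and each chromosome centred on its median, 4 of 29 members passed, or 13.8%, where the share of the table was 13.9%. These were PEX10 and ABCD3, lower, where the share of the table was 7.30%, and AMACR and DECR2, higher, where it was 6.58%. With the block and a correction for GC content and length, 7 members passed, where the share of the table was 19.0%. The members PEX10, ABCD3 and AMACR were called in each of these 3 blocked fits.

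Compared per kilobase of exon, PEX10 was the highest of the members, at 29.9 ± 7.45 CPM per kilobase over the 6 libraries (SD). Then came PHYH at 19.7, FAR1 at 19.7 and SCP2 at 18.4. Its lowest library, at 22.5, lay just above the highest of PHYH, at 22.4. Below PEX10 the ranges of neighbours in the order overlapped down to ABCD4 at 2.66 CPM per kilobase, and PXMP4 came last at 0.0018. PEX26, with a mean of 76.1 CPM, had 4.07 CPM per kilobase on 18.7 kilobases of exon. These levels take the union of annotated exons as the length.

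A second list of peroxisome genes was written by hand, of which 44 of 51 had a row in the table. None passed with the line alone, and 5 had an unadjusted p under 0.05, where the share of the table was 8.46%. With the block 13 passed, or 29.5%, where the share of the table was 19.7%. The pBabe-Gα13 line had the higher level in 3 and the lower in 10, where 9.32% and 10.4% of the table were called in these directions. Over the 43 above the floor the median log2 fold change was −0.07. Overlaps with neighbouring genes were looked up for the members only.

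The 3 genes that rose with the block were NUDT7, DNM1L and IDH1. NUDT7, which hydrolyses coenzyme A in the peroxisome, was scarce, at 2.14, 1.97 and 1.63 CPM in the pBabe-Gα13 libraries std, replicate 2 and replicate 3 and 1.00, 1.45 and 0.810 CPM in pBabe-vector. The groups did not overlap, and the blocked log2 fold change was 0.83 (SE 0.24, edgeR adjusted p = 0.0118). NUDT7 no longer passed without pair std or without pair 3. DNM1L, the fission GTPase shared with mitochondria, had 0.23 and lies on chromosome 12. After centring its value was −0.06 (edgeR adjusted p = 0.478), so the sign turned and the call was lost. IDH1, the NADP-dependent isocitrate dehydrogenase of cytosol and peroxisome, had 0.22 with a blocked adjusted p of 0.00198.

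The 4 largest falls with the block were ACOT8, PEDS1, TRIM37 and SLC25A17. ACOT8, an acyl-CoA thioesterase, stood at 16.1, 18.9 and 16.1 CPM in pBabe-Gα13 and 22.3, 25.4 and 20.2 CPM in pBabe-vector, a blocked log2 fold change of −0.41 (SE 0.08, edgeR adjusted p = 0.00025). PEDS1, the plasmalogen desaturase, which the table lists as TMEM189, had 31.5, 29.8 and 33.2 CPM against 39.2, 41.9 and 44.2 CPM and also −0.41 (SE 0.06, edgeR adjusted p = 1.8e-05). Both lie on chromosome 20, whose median was −0.21, and after centring PEDS1 was called at −0.20 (edgeR adjusted p = 0.0298) and ACOT8 was not (edgeR adjusted p = 0.0822). TRIM37, a ligase that acts on PEX5, and SLC25A17, a cofactor carrier, each had −0.26. After centring TRIM37 was called at −0.22 (edgeR adjusted p = 0.00759), while SLC25A17, on chromosome 22, had −0.12 (edgeR adjusted p = 0.162) and also lost its call without pair 3.

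Of 9 regulators of peroxisome genes and their partners, 8 had a row, and none passed in either fit, nor did any reach an unadjusted p under 0.05 with the line alone. PPARA, the receptor that drives peroxisomal oxidation genes in liver, had a log2 fold change of −0.05, and PPARG, the receptor of fat cells, had 0.47 on a mean of 2.68 CPM with a blocked adjusted p of 0.0726.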

How the data were processed

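RNA of 6 LNCaP cultures was sequenced. The authors assessed reads with FastQC 0.11.7, aligned them with STAR (version not given in the sources used here) to Gencode 38 and counted them with featureCounts. The deposited table holds raw counts, whole numbers of reads for each of 17297 symbols, although TMM, limma and log2 CPM are named for the study's own analysis. The filter that led to these genes, and the strand setting, were not stated. All 6 columns were used.

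Counts were TMM-normalized and tested with edgeR 4.0.16 (glmQLFit, glmQLFTest, R 4.3.3, limma 3.58.1) over all genes without a filter, with the line as the only term, and adjusted by Benjamini-Hochberg. An adjusted p under 0.05 was called. A positive log2 fold change means higher in pBabe-Gα13. A prior count of 2 was used for log2 CPM. Intervals are 95% and ± gives the SD of the 3 libraries. Floors cover counting error alone, as the reads carry no molecular identifiers and may repeat a molecule. With the line alone, the p-values set a difference against the spread between cultures of 1 line each. With the block they set it against the spread of the difference over the 3 pairs of cultures of the same 2 lines.

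The column headings gave 3 pairs. One pBabe-Gα13 heading carries both the tag std and the number of replicate 2, and this library is called std. Deviations from the line means correlated at r = 0.659 (std), 0.807 (replicate 2) and 0.888 (replicate 3) within pairs and from −0.736 to 0.125 between pairs, over 12778 genes, which are not independent replicates. Deviations of the 3 libraries of a line cancel out, so part of this contrast is built in, and the block fits the same data. On the tags and this contrast the pairs count as pairs, and blocked values stand beside results whose call they change. No 2 libraries agreed within sampling noise (chi-square per degree of freedom at least 20.5).

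All 29 members are named. Values in each library are given for GNA13, PXMP2, AMACR, each member called with or without the block, and the highest and lowest per length. Of the other peroxisome genes, the 4 largest rises and 4 largest falls with a block call and a mean of at least 1 CPM are named. Only 3 rose. PPARA, PPARG, RER1, NME4, MREG, KLK2, KLK3, KRT5, KRT8, KRT18, COL1A2, TMPRSS2, FOLH1, HOXB13 and ALB were not set by this rule but picked once their values were known. The members and lists were chosen with earlier results of these data known. Positions come from Gencode 44 on GRCh38, which matched 14402 symbols, or 83.3%, and lengths and positions of a later release than that of the counts may differ. The luminal list had 2 further markers, which are not reported here. The scripts were tested on simulated data. Alternatives were the block, DESeq2 1.42.0 (its test and its size factors), edgeR without legacy dispersions, limma-trend, filterByExpr, centring of each chromosome, a GC and length correction (mgcv 1.9.3), a threshold of 0.01, and leaving out each library or pair. Figures were drawn with matplotlib 3.10.9 (Python 3.11.15).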

Additional observations from a re-analysis of the deposited data

How the results depend on the processing

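With the line as the only term, no member passed under any alternative without the block, at 0 in each library left out. DESeq2's test, limma-trend and edgeR each called 0, with 3, 4 and 2 members at an unadjusted p under 0.05. With the block 7 members passed, with the block and each chromosome centred 4, with the block and the GC and length correction 7, and with the block and each pair left out 5 to 6. For the other peroxisome genes and regulators these counts were 13, 10, 10 and 6 to 12, against 0 in each library left out, and DESeq2 called 1, PEDS1. The count of 6 came without pair 3. The block changed no other call of a member. The median log2 fold change of the members was −0.0402 with the block and the GC and length correction, −0.0569 to −0.0039 over single libraries left out and −0.0456 to −0.0293 over pairs left out (−0.0400 without pair 2). The value nearest to 0 came without the std library of pBabe-vector. Centring of the chromosomes turned the sign of PEX19 (−0.0202, and −0.0207 with the block), PEX5 (−0.0401 and −0.0401), PXMP2 (−0.15 and −0.16) and PECR (−0.0444 and −0.0403), and the block with GC and length turned PEX19 (−0.0092). The sign also turned when single libraries were left out in 15 members that passed in no fit, with ranges of −0.11 to 0.17 (ABCD4), −0.24 to 0.0171 (ACAA1), −0.0264 to 0.0592 (ACBD5), −0.0628 to 0.0457 (AGPS), −0.15 to 0.0308 (EHHADH), −0.0791 to 0.0190 (FAR1), −0.0863 to 0.0037 (GNPAT), −0.12 to 0.16 (PECR), −0.0697 to 0.21 (PEX11A), −0.0026 to 0.0848 (PEX14), −0.0361 to 0.0518 (PEX19), −0.20 to 0.0226 (PEX3), −0.19 to 0.0804 (PHYH), −0.0651 to 0.31 (PXMP2) and −0.0708 to 0.0257 (SCP2). With pairs left out under the block it turned in 5 of these, with ranges of −0.0297 to 0.13 (ABCD4), −0.0155 to 0.0699 (ACBD5), −0.0408 to 0.0028 (AGPS), −0.0035 to 0.0943 (PEX14) and −0.0212 to 0.0398 (PEX19). The cause of these turns was not tested. With 3 libraries a line the interval reached a median of 0.285 to each side on the log2 scale, which limits what the line-only test could detect.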
